A study of Arabidopsis thaliana with 18 samples.

Results

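Expansins and endo-mannanases are proteins that loosen plant cell walls, and both are known for their part in seed germination. The set described here holds 10 Arabidopsis thaliana genes listed by locus code, with earlier results of these data known: 6 alpha-expansin genes and 4 endo-beta-mannanase genes linked to germinating seeds. The array table used here gave values for 9 of the 10 among its 30014 genes. These are the expansin genes EXPA1 (AT1G69530), EXPA2 (AT5G05290), EXPA8 (AT2G40610), EXPA9 (AT5G02260) and EXPA10 (AT1G26770), and the endo-mannanase genes MAN2 (AT2G20680), MAN5 (AT4G28320), MAN6 (AT5G01930) and MAN7 (AT5G66460). EXPA3 (AT2G37640) was not analysed here. Positions and sequences are not given, because no genome build is named for the array values and no sequence was used here.

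Total RNA was hybridised to 18 Affymetrix AGRONOMICS1 tiling arrays in 6 groups of 3, named in the labels as biological replicates. The groups were rdo5-1 and NIL-DOG1 siliques at 14 days after pollination, rdo5-1 and NIL-DOG1 dry seeds after harvest, and rdo5-1 and NIL-DOG1 seeds imbibed for 6 h. For every sample the labels give 16 h of light and 8 h of dark. NIL-DOG1 is the line that the labels call wild type; as background, it is a near-isogenic line carrying a strongly dormant allele of the dormancy gene DOG1, so the controls carry that allele too, and rdo5-1 is a reduced-dormancy mutant of the phosphatase gene RDO5 isolated in it. A silique sample holds the fruit wall as well as the seeds in it, and seed samples hold embryo, endosperm and seed coat together.

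A dormant seed and a germinating seed differ in whether the radicle can push through the layers around it. Alpha-expansins loosen the wall by weakening the contacts between cellulose and hemicellulose without cutting either. Endo-beta-mannanases cut the backbone of mannan, a hemicellulose that strengthens endosperm walls. In germinating seeds gibberellin raises transcripts of several members of both families, in the elongating embryo axis and in the endosperm that covers the radicle tip.

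All values below are log2 values made with RMA by the authors, and a fold change is a difference of log2 means with its standard error (SE). Calls required an adjusted p under 0.05 from limma, with Benjamini-Hochberg adjustment over all 30014 genes. Replicate arrays correlated at 0.990 to 0.995 over all genes. RDO5 was lower in rdo5-1 at each stage, with log2 fold changes of -1.001 (siliques), -0.93 (dry seeds) and -1.34 (imbibed seeds) and adjusted p-values of 0.00333, 0.00852 and 1.62e-04 in that order. RDO5 was no longer called in dry seeds after leaving out rdo5-1 array 1 (adjusted p = 0.0648) or 2 (adjusted p = 0.057), nor in siliques with the 6 silique arrays fitted alone (adjusted p = 0.387). The 7 seed storage and maturation markers had group means at or above percentile 99.86 of all genes in each of the 4 seed groups, and from percentile 69.4 in rdo5-1 siliques and 61.3 in NIL-DOG1 siliques.

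EXPA8 was the 1 gene of the set called between the genotypes: it was higher in imbibed rdo5-1 seeds than in imbibed NIL-DOG1 seeds. Its log2 values were 5.75, 5.82 and 5.48 in imbibed rdo5-1 seeds, against 4.87, 4.73 and 5.04 in imbibed NIL-DOG1 seeds. Every rdo5-1 array lay above every NIL-DOG1 array. The rise was 0.80 ± 0.13 log2 units (SE, n = 3 each; 95% interval 0.53 to 1.07; adjusted p = 0.00703), or 1.74-fold. In this comparison 0.633% of all genes were called and 0.506% rose. The call held without any single array (log2 fold change 0.73 to 0.90) and was lost with the 6 imbibed seed arrays fitted alone (adjusted p = 0.0704, the highest over the alternatives, against a lowest of 0.00202).

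In dry seeds EXPA8 had values of 5.14, 5.15 and 5.05 in rdo5-1, against 4.93, 4.96 and 4.48 in NIL-DOG1. The groups did not overlap, as was the case for 14.7% of all genes, but the difference of 0.33 ± 0.13 was not called (limma adjusted p = 0.501). Without NIL-DOG1 array 3, the lowest of the 18, the difference was 0.17. In siliques the values were 4.80, 4.87 and 4.84 in rdo5-1 and 4.68, 5.02 and 4.91 in NIL-DOG1, and the groups overlapped (difference -0.03 ± 0.13; limma adjusted p = 0.973). The genotype effect on EXPA8 was 0.47 ± 0.18 larger in imbibed than in dry seeds, a difference of effects that was not called (95% interval 0.09 to 0.86; limma adjusted p = 0.660). Of the 9 genes 0 were called in that test, where 0.02% of all genes were called. An unadjusted p under 0.05 was found for 1 of the 9 and for 1948 of all 30014 genes.

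EXPA1, an alpha-expansin gene active in growing tissues, had values of 6.51, 6.21 and 6.31 in imbibed rdo5-1 seeds and 5.90, 6.03 and 5.98 in imbibed NIL-DOG1 seeds. Each rdo5-1 array was above each NIL-DOG1 array, and the difference of 0.37 ± 0.11 was not called (95% interval 0.14 to 0.61; limma adjusted p = 0.220). EXPA10, which is known to promote leaf growth, was 0.13 ± 0.11 higher and EXPA9 0.10 ± 0.14 higher in imbibed rdo5-1 seeds, again with arrays that did not overlap and without a call. The EXPA10 values there were dim, with group means at percentiles 42.5 in rdo5-1 and 38.5 in NIL-DOG1. Those of EXPA9 were little brighter, at percentiles 49.1 and 47.1. EXPA2, known as an endosperm expansin gene of germination, differed by -0.03 ± 0.11 in imbibed seeds and its arrays overlapped. In all, 5 of the 9 genes had rdo5-1 arrays wholly above the NIL-DOG1 arrays in imbibed seeds and 0 wholly below. Of all 30014 genes 2439 lay wholly above and 2200 wholly below, so 15.5% did not overlap in one direction or the other. The 5 genes of the set were EXPA1, EXPA8, EXPA9, EXPA10 and MAN7, and 1 of them was called.

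**Figure D1:**
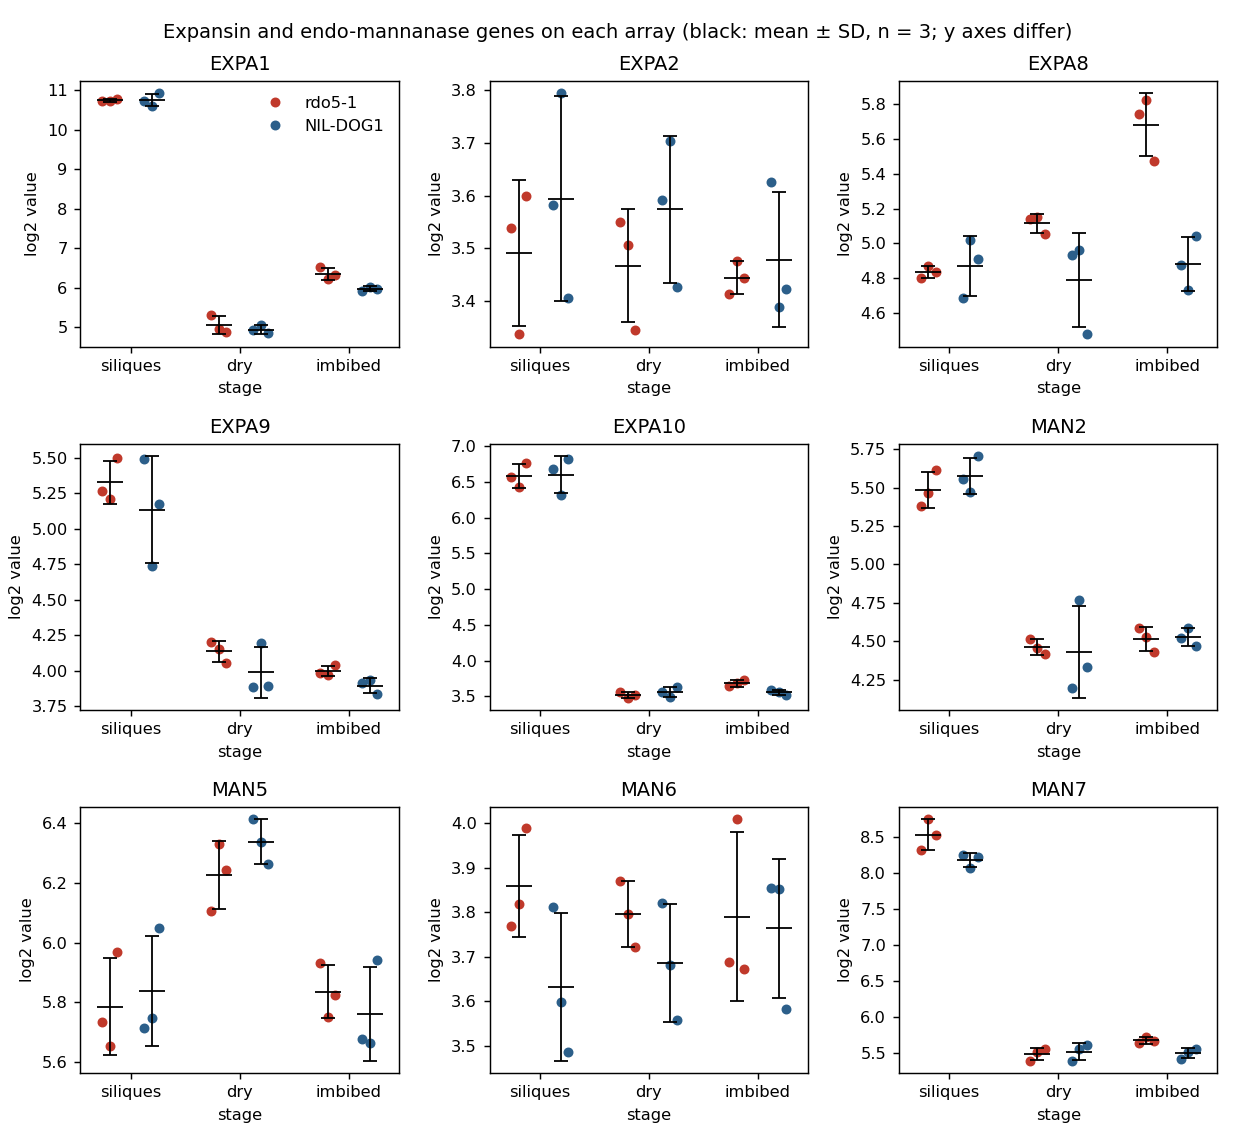
Log2 values of the 9 genes on each of the 18 arrays (y axis, its range differs between panels) in siliques, dry seeds and imbibed seeds (x axis), rdo5-1 in red and NIL-DOG1 in blue; bars are the mean ± SD of 3 arrays. EXPA8 in imbibed rdo5-1 seeds lies at 5.48 to 5.82, above the other groups.

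The endo-mannanase genes had no called genotype difference at any stage. MAN7, whose loss is known to slow germination, had values of 8.32, 8.75 and 8.53 in rdo5-1 siliques, against 8.25, 8.07 and 8.22 in NIL-DOG1 siliques. The arrays did not overlap, and the difference of 0.35 ± 0.10 was not called (95% interval 0.15 to 0.56; limma adjusted p = 0.237). In dry seeds MAN7 differed by -0.03 ± 0.10, and in imbibed seeds by 0.18 ± 0.10 (limma adjusted p = 0.678), with values of 5.63, 5.73 and 5.67 in rdo5-1 and 5.42, 5.51 and 5.56 in NIL-DOG1. The smaller MAN7 effect in dry seeds than in siliques, a difference of -0.39 ± 0.14, was not called either (95% interval -0.68 to -0.10; limma adjusted p = 0.551).

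MAN2, MAN5 and MAN6 differed between the genotypes by at most 0.23 log2 units, for MAN6 in siliques (0.23 ± 0.11; 95% interval -0.02 to 0.47; limma adjusted p = 0.605). In imbibed seeds their intervals ran from -0.26 to 0.24 for MAN2, from -0.16 to 0.31 for MAN5 and from -0.22 to 0.27 for MAN6. These genes overlapped between the genotypes at each stage.

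Over the set, limma called 0 of 9 genes in siliques, 0 of 9 in dry and 1 of 9 in imbibed seeds, where 0.2%, 0.137% and 0.633% of all genes were called. At an unadjusted p under 0.05 there were 1, 1 and 2 genes of the set, and 2667, 2504 and 2495 of all 30014 genes. The median difference was -0.02 for siliques, 0.03 for dry seeds and 0.10 for imbibed seeds, and that of all genes was 0.00 at each stage. In siliques 1 of the 9, MAN7, had arrays of the genotypes apart, against 12.5% of all genes, and in dry seeds 1, EXPA8, against 14.7%. The change of the genotype effect between siliques and dry seeds was called for 0 of the 9 genes and for 0.05% of all genes. Its unadjusted p was under 0.05 for 1 of the 9 and for 2202 of all 30014 genes.

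**Figure D2:**
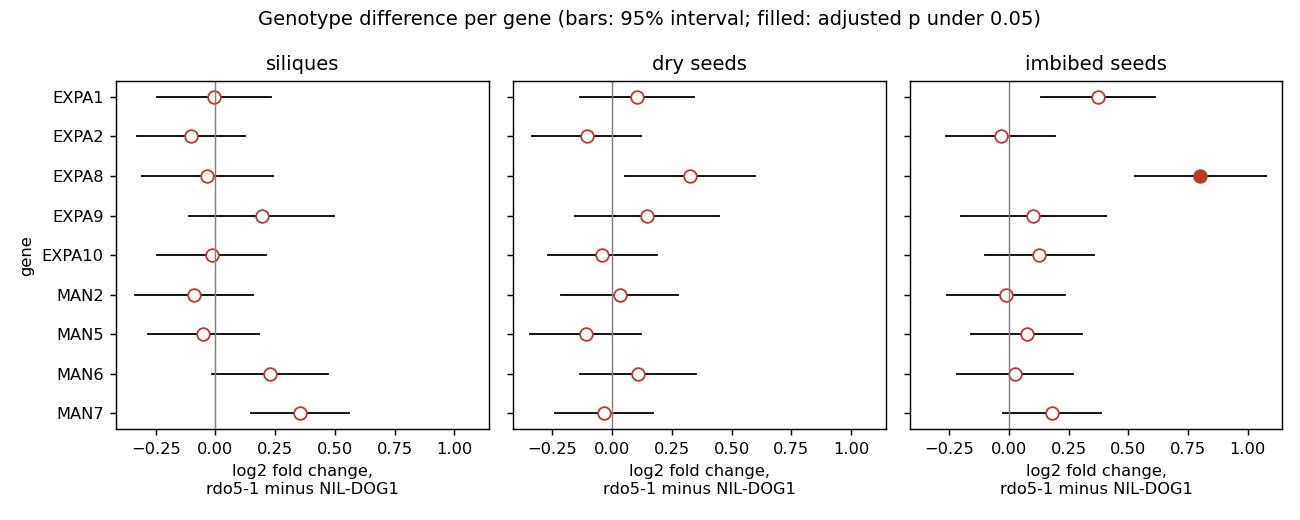
Log2 fold change of rdo5-1 over NIL-DOG1 (x axis) for each gene (y axis) in siliques, dry seeds and imbibed seeds; points are fitted values, bars 95% intervals, and a filled point is a call at an adjusted p under 0.05. EXPA8 in imbibed seeds, at 0.80, is the one filled point.

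From siliques to dry seeds 5 genes fell in both genotypes, EXPA1, EXPA9, EXPA10, MAN2 and MAN7, while MAN5 rose. EXPA1 had values of 5.31, 4.96 and 4.88 in rdo5-1 dry seeds, against 10.74, 10.71 and 10.78 in rdo5-1 siliques. It had 4.93, 5.05 and 4.84 in NIL-DOG1 dry seeds, against 10.72, 10.60 and 10.92 in NIL-DOG1 siliques. The fall of EXPA1 was the largest in the set, with a log2 fold change of -5.70 ± 0.11 in rdo5-1 (adjusted p = 4.03e-16) and -5.81 ± 0.11 in NIL-DOG1 (adjusted p = 3.31e-16). No seed array came near a silique array.

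EXPA10 had values of 3.55, 3.48 and 3.52 in rdo5-1 dry seeds and 6.58, 6.42 and 6.76 in rdo5-1 siliques, a fall of -3.07 ± 0.11 (adjusted p = 2.96e-13). In NIL-DOG1 the fall of EXPA10 was -3.04 ± 0.11 (adjusted p = 3.45e-13). EXPA10 was dim in dry seeds, with group means at percentiles 35.3 and 37.4 of all genes, where a value contains background, so both falls may be compressed. MAN7 averaged 5.49 ± 0.08 in rdo5-1 dry seeds and 8.53 ± 0.21 in rdo5-1 siliques (SD, n = 3 each), a fall of -3.05 ± 0.10 (SE; limma adjusted p = 9.26e-14). In NIL-DOG1 it averaged 5.52 ± 0.11 in dry seeds and 8.18 ± 0.10 in siliques, a fall of -2.66 ± 0.10 (SE; limma adjusted p = 5.10e-13). The arrays of dry seeds lay below those of siliques for both genes in both genotypes.

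EXPA9 fell by 1.19 ± 0.14 in rdo5-1 (adjusted p = 1.61e-06) and by 1.14 ± 0.14 in NIL-DOG1 (adjusted p = 2.60e-06). In dry seeds its group means lay at percentiles 50.9 and 48.6 of all genes, so background may compress these falls too. MAN2 fell by 1.02 ± 0.12 in rdo5-1 (adjusted p = 8.26e-07) and by 1.15 ± 0.12 in NIL-DOG1 (adjusted p = 2.12e-07). NIL-DOG1 silique array 2 was low for EXPA9, at 4.74 against 5.49 and 5.17 on the other two, and NIL-DOG1 dry seed array 2 was high for MAN2, at 4.77 against 4.20 and 4.33. The falls were called without each of these arrays too.

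MAN5 went the other way. It had values of 6.11, 6.33 and 6.24 in rdo5-1 dry seeds, against 5.74, 5.65 and 5.97 in rdo5-1 siliques. In NIL-DOG1 it had 6.41, 6.34 and 6.26 in dry seeds, against 5.71, 5.75 and 6.05 in siliques. Dry seeds were above siliques on every array, and MAN5 rose by 0.44 ± 0.11 in rdo5-1 (adjusted p = 0.00252) and by 0.50 ± 0.11 in NIL-DOG1 (adjusted p = 8.67e-04). After quantile normalization again the rises were 0.72 and 0.75.

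Between dry seeds and siliques, then, 1 of 9 genes rose and 5 fell in each genotype. Of all genes 27.2% rose and 25.7% fell in rdo5-1, and 27.4% rose and 26.6% fell in NIL-DOG1. The median change of the set was -1.02 in rdo5-1 and -1.14 in NIL-DOG1, and that of all genes 0.06 and 0.05. Centring each array on its median moved the median of all genes to 0.29 in rdo5-1 and 0.30 in NIL-DOG1, with the 5 falls at -0.80 or beyond in that setting. EXPA2, EXPA8 and MAN6 were not called. The sign of their small changes depended on the scaling in at least 1 genotype, and EXPA8 in rdo5-1 passed the test after quantile normalization (0.61; adjusted p = 6.62e-04) and after centring (0.51; adjusted p = 0.00226), with the arrays compared alone (adjusted p = 0.0135) and after dropping array 3 of the NIL-DOG1 dry seeds (adjusted p = 0.0344), as did MAN6 in NIL-DOG1 after centring (0.31; adjusted p = 0.0190).

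Tissue markers were read beside these falls, and several lists held called changes between the same stages. Of all genes 27.2% rose and 25.7% fell in rdo5-1, and 27.4% and 26.6% in NIL-DOG1. Of 11 markers of the silique valve and secondary wall 0 rose and 8 fell in rdo5-1 dry seeds against siliques, and 0 rose and 10 fell in NIL-DOG1. The log2 of their summed level ran from 6.99 to 7.09 on rdo5-1 dry seed arrays and from 10.5 to 11.1 on rdo5-1 silique arrays, and from 6.99 to 7.08 and from 10.2 to 10.5 on those of NIL-DOG1. Of 4 seed coat markers measured, 3 fell in each genotype. Among them TT10, a laccase gene of seed coat browning picked here after its values were seen, had log2 fold changes of -6.69 in rdo5-1 and -6.13 in NIL-DOG1. Of 3 endosperm markers 1 rose and 1 fell in rdo5-1, and 1 rose and 2 fell in NIL-DOG1, where neither fall was called after centring. The rdo5-1 rise, of EPR1, was lost without rdo5-1 dry seed array 3 (adjusted p = 0.109) or silique array 3 (adjusted p = 0.101). Of the 7 seed storage and maturation markers 2 rose and 1 fell in each genotype. EM6, a late embryogenesis gene, rose by 8.14 in rdo5-1 and 8.90 in NIL-DOG1, and EM1 by 3.40 and 3.64, while SESA1, a storage albumin gene, fell, with -0.32 and -0.43, and its rdo5-1 call was lost after centring (adjusted p = 0.156). The part of these tissues and of seed stage in the falls was not tested, and in such bulk samples fewer cells of a type and less RNA per cell cannot be told apart.

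In imbibed against dry seeds EXPA1 rose in both genotypes and EXPA8 rose in rdo5-1, while MAN5 fell in both. EXPA1 had values of 6.51, 6.21 and 6.31 in imbibed rdo5-1 seeds, against 5.31, 4.96 and 4.88 in dry ones, a rise of 1.30 ± 0.11 (adjusted p = 2.22e-07). In NIL-DOG1 it had 5.90, 6.03 and 5.98 in imbibed seeds, against 4.93, 5.05 and 4.84 in dry ones, a rise of 1.03 ± 0.11 (adjusted p = 3.45e-06). Imbibed seeds were above dry seeds on every array but stayed far below the silique values. The difference of these rises, 0.27 ± 0.16, was not called (95% interval -0.07 to 0.61; limma adjusted p = 0.853).

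EXPA8 rose by 0.57 ± 0.13 on imbibition in rdo5-1 (adjusted p = 0.00291), where the imbibed arrays lay above the dry ones. In NIL-DOG1 its change was 0.09 ± 0.13 (limma adjusted p = 0.694), with overlapping arrays. The test of the difference between the genotypes is the one given above, and it did not pass. MAN5 fell by 0.39 ± 0.11 in rdo5-1 (adjusted p = 0.0126) and by 0.58 ± 0.11 in NIL-DOG1 (adjusted p = 7.78e-04). Its rdo5-1 call was lost without rdo5-1 dry seed array 2 (adjusted p = 0.0599) and without rdo5-1 imbibed seed array 2 (adjusted p = 0.0520).

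The other genes of the set showed no called change within the first hours of imbibition. MAN7 differed by 0.19 ± 0.10 in rdo5-1 (95% interval -0.01 to 0.40) and by -0.03 ± 0.10 in NIL-DOG1. EXPA2 differed by -0.02 ± 0.11 and -0.10 ± 0.11, and MAN6 by -0.01 ± 0.11 and 0.08 ± 0.11. In rdo5-1 2 of the 9 rose and 1 fell, where 16.4% of all genes rose and 11.9% fell. In NIL-DOG1 1 rose and 1 fell, where 14.2% rose and 10.6% fell.

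**Figure D3:**
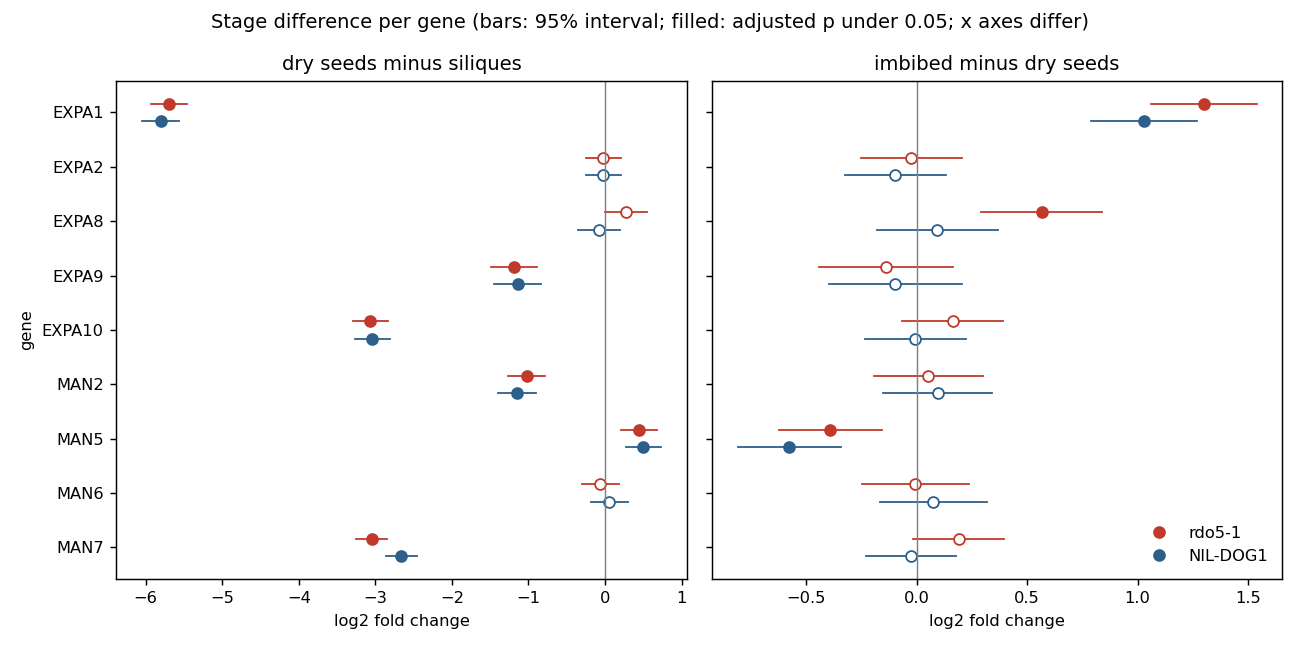
Log2 fold change between stages (x axis, its range differs between panels) for each gene (y axis), rdo5-1 in red above NIL-DOG1 in blue; bars are 95% intervals and filled points are calls at an adjusted p under 0.05. EXPA1 lies near -5.7 for dry seeds minus siliques and above 1 for imbibed minus dry seeds in both genotypes, and EXPA8 is filled on imbibition in rdo5-1 alone.

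EXPA2 and MAN6 were dim in every group, as EXPA10 was in the seed groups. EXPA2 ran from 3.34 to 3.79 over the 18 arrays, and its group means lay between percentiles 33.5 and 37.9 of all genes. MAN6 ran from 3.49 to 4.01, between percentiles 37.2 and 45.0. A log2 value at that level contains background, so differences of these genes may be compressed and a low transcript level cannot be told from none. Arrays of all neighbouring groups overlapped when the 6 groups were put in order of their mean, for both genes.

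The order of the groups separated the rest into 3 kinds. EXPA1, EXPA9, EXPA10, MAN2 and MAN7 were highest in the silique groups, and the lowest silique array of each lay above its highest seed array. For MAN7 rdo5-1 siliques also lay above NIL-DOG1 siliques, while for the other 4 the genotypes overlapped in siliques. MAN5 was highest in the dry seed groups, which overlapped each other and no other group. EXPA8 was highest in imbibed rdo5-1 seeds, then in dry rdo5-1 seeds, and its 4 other groups overlapped along their order. Over the 18 arrays the 5 silique-high genes correlated with each other at r = 0.930 to 0.992, a description that rests on the stages they share. EXPA8 correlated with no other gene of the set above r = 0.179.

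By the same measure, the gene closest to EXPA8 among 9010 genes outside the lists with group means spanning at least 1 log2 unit was AT5G35420 (r = 0.874, 18 arrays). PUM9 (AT1G35730), the Pumilio gene also known as APUM9, came second (r = 0.860), and the homeobox gene HB-1 (AT3G01470) next (r = 0.838). PUM9 averaged 8.62 in imbibed rdo5-1 seeds and 3.19 in imbibed NIL-DOG1 seeds, and its other group means ran from 2.99 to 4.30. Its r thus rests largely on imbibed rdo5-1 seeds, the group where EXPA8 was highest. Shared regulation was not tested. HB-1 averaged 7.99 in imbibed rdo5-1 seeds and 7.30 in imbibed NIL-DOG1 seeds. For MAN7 the closest were PYL6, an abscisic acid receptor gene, GOX1, a glycolate oxidase gene, and AT1G51110, each at r = 0.997. For EXPA2, which varied little, the closest gene reached r = 0.622 (AT5G16286).

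The set was then placed beside its relatives. Of 20 other alpha-expansin genes listed, 17 were in the table, and 0 of them were called between the genotypes at any stage by limma (1, 2 and 2 with an unadjusted p under 0.05 in siliques, dry and imbibed seeds in turn). EXPA20, picked after its values were seen, came closest, with 0.42 ± 0.09 in imbibed seeds and arrays that did not overlap (adjusted p = 0.0632). It also rose on imbibition, by 1.40 ± 0.09 in rdo5-1 and 1.20 ± 0.09 in NIL-DOG1, while EXPA13 fell, with -0.44 and -0.39. On imbibition 16.4% of all genes rose and 11.9% fell in rdo5-1, and 14.2% and 10.6% in NIL-DOG1. Between dry seeds and siliques the shares were 27.2% and 25.7% in rdo5-1, and 27.4% and 26.6% in NIL-DOG1. The same shares apply to the lists below. Between dry seeds and siliques 4 of the 17 rose and 4 fell in rdo5-1, and 2 rose and 5 fell in NIL-DOG1. EXPA15 had log2 fold changes of -7.08 in rdo5-1 and -6.85 in NIL-DOG1, and EXPA5 of -5.63 and -5.69.

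Of 10 beta-expansin and expansin-like genes 0 were called between the genotypes at any stage (limma; 4, 0 and 1 with an unadjusted p under 0.05). In siliques 2667 of all 30014 genes had such a p. The largest difference of this list, -0.79, was that of EXPB5 in siliques. Its values were 5.41, 5.90 and 5.56 in rdo5-1 and 6.36, 6.46 and 6.41 in NIL-DOG1, and the arrays did not overlap. Between dry seeds and siliques 3 of the 10 rose and 2 fell in rdo5-1, and 3 rose and 4 fell in NIL-DOG1. The expansin-like gene EXLA1 rose by 1.77 in rdo5-1 and 2.29 in NIL-DOG1, and EXLB1 fell, with -1.94 and -2.52. On imbibition 0 rose and 2 fell in rdo5-1, and 2 rose and 1 fell in NIL-DOG1. EXPB5 fell in both, with -0.59 and -0.69, and its rdo5-1 call was lost without rdo5-1 dry seed array 2 (adjusted p = 0.0847) or 3 (adjusted p = 0.0641) or imbibed seed array 3 (adjusted p = 0.0551). The other rdo5-1 fall, of EXLB1 (-0.41), was lost without rdo5-1 dry seed array 2 or 3 or imbibed seed array 1 or 2 (adjusted p up to 0.135), after quantile normalization again (adjusted p = 0.103) and after centring (adjusted p = 0.0552).

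The endo-mannanase gene MAN1 had the stage pattern of MAN5. It had values of 8.98, 9.10 and 8.95 in rdo5-1 dry seeds, against 7.87, 7.93 and 7.99 in rdo5-1 siliques, and it rose by 1.08 ± 0.11 (adjusted p = 2.40e-07). In NIL-DOG1 it rose by 1.13 ± 0.11 (adjusted p = 1.42e-07). On imbibition MAN1 fell by 1.26 ± 0.11 in rdo5-1 and by 1.12 ± 0.11 in NIL-DOG1, and between the genotypes it differed by -0.19 ± 0.11 in imbibed seeds (limma adjusted p = 0.728). MAN3 and AT3G10900, the other genes of that list, were not called in any comparison. Between dry seeds and siliques, MAN3 in rdo5-1 (-0.32) and AT3G10900 in NIL-DOG1 passed the threshold under some alternatives. MAN3 in NIL-DOG1 passed after centring, with the opposite sign (0.30, limma adjusted p = 0.0478). Both genes were dim, with group means at percentiles 9.4 to 26.7 for MAN3 and 26.0 to 40.4 for AT3G10900. Low signal thus limits what a missing call can show for them. Of the 3 genes listed, 0 were called between the genotypes (limma; 2, 0 and 0 with an unadjusted p under 0.05).

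XTH genes encode enzymes that cut and rejoin xyloglucan, another wall hemicellulose. Of 33 listed, 32 were in the table, and XTH15 was the one called between the genotypes, in imbibed seeds. It had values of 4.57, 4.42 and 4.25 in rdo5-1, against 3.93, 3.59 and 3.51 in NIL-DOG1, a rise of 0.73 ± 0.13 (adjusted p = 0.0138). The arrays did not overlap. The NIL-DOG1 values lay below the lowest seed array median, 4.03, where a value contains background, so the rise may be compressed. An uncalled XTH gene had a larger difference in imbibed seeds, 0.97. The XTH15 call was lost with the 6 arrays fitted alone (adjusted p = 0.126), without NIL-DOG1 imbibed seed array 2 (adjusted p = 0.068) or 3 (adjusted p = 0.0809) and without rdo5-1 imbibed seed array 1 (adjusted p = 0.0903). Between dry seeds and siliques 4 XTH genes rose and 15 fell in rdo5-1, and 3 rose and 16 fell in NIL-DOG1. Of all genes 25.7% fell in rdo5-1 and 26.6% in NIL-DOG1. XTH24 fell, with log2 fold changes of -8.06 in rdo5-1 and -7.66 in NIL-DOG1, while XTH11 rose by 4.09 and 3.84. On imbibition 4 rose and 2 fell in rdo5-1 and 2 rose and 0 fell in NIL-DOG1, with XTH27 up by 0.95 and 1.01. The other NIL-DOG1 rise, of XTH22 (0.82), was called in 13 of 25 alternatives. It was lost after quantile normalization again, without any one of the NIL-DOG1 silique or imbibed seed arrays, without NIL-DOG1 dry seed array 2 or 3, and without rdo5-1 silique array 1, dry seed array 1 or imbibed seed array 3 (adjusted p up to 0.134). The rdo5-1 rise of XTH24 (1.14) was lost with the compared arrays fitted alone (adjusted p = 0.0693).

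**Figure D4:**
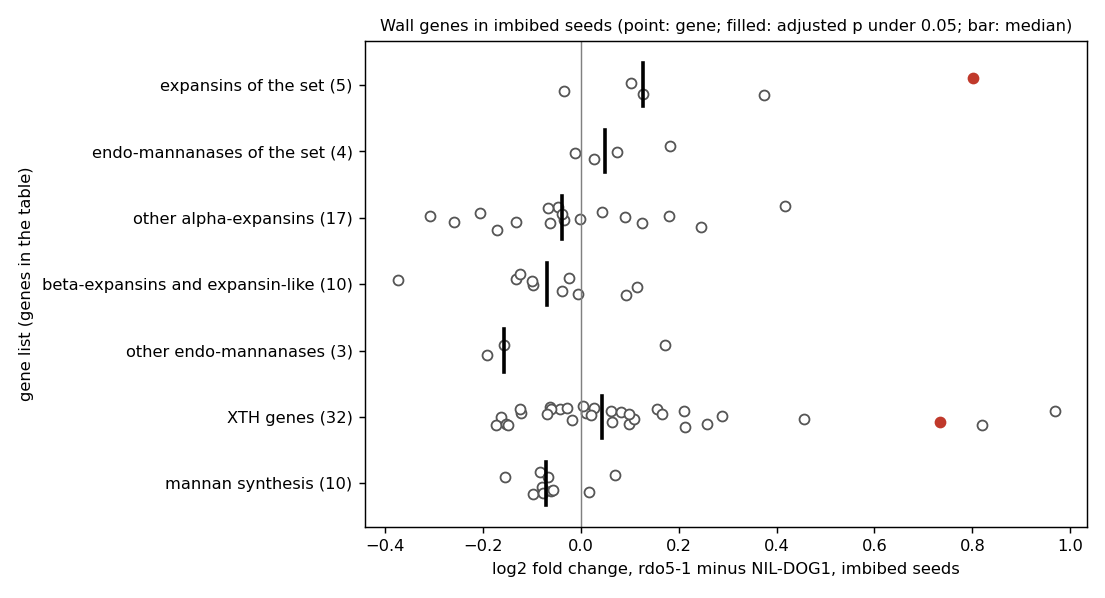
Log2 fold change of rdo5-1 over NIL-DOG1 in imbibed seeds (x axis) for each gene of 7 lists of wall genes (y axis, number of genes in brackets); filled points are calls at an adjusted p under 0.05 and black bars are list medians. EXPA8 at 0.80 and XTH15 at 0.73 are the filled points, and the list medians lie between -0.16 and 0.13.

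Mannan, the substrate of the endo-mannanases, is made by CSLA enzymes. Of 10 mannan synthesis genes 0 were called between the genotypes (limma; 2, 1 and 0 with an unadjusted p under 0.05). Between dry seeds and siliques 0 rose and 5 fell in rdo5-1, and 1 rose and 5 fell in NIL-DOG1. Of all genes 25.7% fell in rdo5-1 and 26.6% in NIL-DOG1. CSLA2 fell, with -1.80 ± 0.08 in rdo5-1 and -1.98 ± 0.08 in NIL-DOG1, and so did CSLA9, with -1.01 and -1.12. On imbibition CSLA2 was the one called gene, a fall of 0.45 in rdo5-1.

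Transcription factors reported to act on EXPA2 and MAN7 were read beside them. BZIP44, a bZIP factor reported upstream of MAN7, had values of 5.70, 5.84 and 5.74 in imbibed rdo5-1 seeds, against 5.28, 5.29 and 5.22 in imbibed NIL-DOG1 seeds. The groups were apart, and the difference of 0.50 ± 0.13 was not called (95% interval 0.21 to 0.78; limma adjusted p = 0.138). Like MAN7, BZIP44 fell between siliques and dry seeds, with -6.18 in rdo5-1 and -5.90 in NIL-DOG1, and it was called on imbibition, with rises of 1.46 ± 0.13 and 0.99 ± 0.13. NAC25, a NAC factor reported upstream of EXPA2, lay between percentiles 11.8 and 21.7 of all genes in every group. It was not called in any comparison, and neither was AT3G12977 of the same list. After centring, NAC25 passed the threshold between NIL-DOG1 dry seeds and siliques (0.28, limma adjusted p = 0.0224). AT3G12977 was dim too, at percentiles 18.9 to 28.4, so low signal limits what a missing call can show for both.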

How the data were processed

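The members and lists were chosen with earlier results of these data known. The deposited values are log2 values, 1 per locus code and array, made by the authors with RMA, per the submitters' processing notes. RMA corrects background, equalises array distributions and summarises probes. In the deposited values the array medians still ran from 4.31 to 4.35 in siliques and from 4.03 to 4.12 in seeds. The RMA version, the probe sets, the genome build and the arrays it was run on together are not stated here. RNA from siliques or seeds was labelled per the labels' protocols. Locus codes matched a TAIR10.1 gene table for 29464 of 30014 genes.

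Group means were estimated in limma 3.58.1 (R 4.3.3; lmFit, then eBayes) from the 18 arrays together, unfiltered, with 12 residual degrees of freedom, and p-values were adjusted by Benjamini-Hochberg over 30014 genes. SE and 95% intervals come from this fit. The number of arrays limits the precision. Named genes were the members, up to 4 called genes per list and comparison, the other endo-mannanases, the 3 regulators, RDO5 and the 3 genes closest to EXPA8, EXPA2 and MAN7; not all are printed. Alternatives were a filter on the lowest 30% of genes, quantile normalization again, centring, trend and robust settings, array weights, the compared arrays alone, the replicate number as a block, a log2 threshold of 1 and leaving out each array. The procedure was tested on simulated data. A promoter motif search was planned and not run, for want of sequences.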

Additional observations from a re-analysis of the deposited data

How the results depend on the processing

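Counts of called genes of the set kept their direction and stayed within 1.5 times under the alternatives, with these exceptions. With the arrays compared fitted alone, the count in imbibed rdo5-1 against NIL-DOG1 seeds was 0, against 1. With a threshold of 1 log2 unit the count was 0 there, and 1 for imbibition in rdo5-1 and 1 in NIL-DOG1, against 3 and 2; these follow from the stricter threshold. Leaving out each array gave 1 to 1 in imbibed seeds, 0 to 0 in siliques and in dry seeds, 2 to 3 for imbibition in rdo5-1, 2 to 2 in NIL-DOG1, and 6 to 7 and 6 to 6 for dry seeds against siliques in rdo5-1 and NIL-DOG1. Of 2025 recomputed values of single members, 3 lost a call, 5 gained one and 0 called values changed sign; 78 uncalled values changed sign. The cause of these changes was not tested.

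Over all genes, the genotype calls were 60 in siliques (10 to 78 over the alternatives), 41 in dry seeds (6 to 64) and 190 in imbibed seeds (48 to 413), and the difference of effects on imbibition was called for 6 (1 to 10). The lowest counts came with the compared arrays alone. For the last, the count was also 1 with the replicate block and without NIL-DOG1 dry seed array 1 or 2, NIL-DOG1 imbibed seed array 3, rdo5-1 dry seed array 1 or 2, rdo5-1 imbibed seed array 3 or rdo5-1 silique array 3, and it moved by over 1.5 times in 17 settings. The replicate numbers showed little sign of pairing the arrays. Deviations of same-numbered arrays correlated at -0.051 to 0.168, 1 of 21 pairs over 0.1, and 4 correlated best with their own number. The highest, 0.168, was between the silique arrays numbered 2, where other numbers gave -0.102 and -0.085. Low correlations cannot exclude shared plants or harvests. With the replicate block, 1 member was called in imbibed seeds and 167 genes over all, with 49 genes in siliques and 31 in dry seeds. The labels do not say whether replicates came from separate plants or harvests, so p-values measure the spread between these arrays. For EXPA2 and MAN6, and for EXPA10 in seeds, all dim on these arrays, low signal limits what a missing call can show. The limit may extend to EXPA9 in seeds, with group means at percentiles 47.1 to 50.9.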
